A study of Rattus norvegicus with 22 samples.

Results

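The genes described here are the collagen chains, taken as every gene whose symbol on the rat expression array has the form Col, a number, the letter a and a number. By that rule 35 genes on 46 probes were found, out of 19167 gene symbols and 30367 probes on the array. Collagen genes that the array lists under other names, among them Col11a1 and Col12a1 under transcript identifiers and Col4a6 under a provisional symbol, fall outside that rule and are in none of the counts. Where a gene had several probes, the one with the brightest mean signal over the arrays was used. The chains were divided into 10 of the fibrillar class, 9 of basement membranes and 16 others, and the last group holds 7 fibril-associated, 4 beaded-filament, 3 short-chain network and 2 transmembrane chains.

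The samples came from 11 male F344 rats given 4-nitroquinoline-1-oxide (4-NQO), a carcinogen that induces tumors of the tongue, at 20 ppm in drinking water for 10 weeks. Tissue was taken 23 to 26 weeks after the first exposure, at an age of about 33 weeks. Each rat gave 1 piece of oral squamous cell carcinoma (OSCC) and 1 piece of phenotypically normal tongue next to it, and each of the 22 pieces was measured on 1 single-color array. Both pieces of a rat had been exposed to 4-NQO according to the deposited protocol and the methods, although the labels list no treatment for the normal pieces and the titles of all 22 arrays carry the word untreated. The normal pieces are therefore not tissue of unexposed animals, and both kinds of piece are mixtures of epithelium, muscle, stroma and blood cells.

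Collagens are extracellular proteins built of chains that wind around each other into a triple helix. Types I, III and V form the fibrils that give connective tissue its tensile strength, type IV forms the sheet-like network under epithelia and around vessels and muscle fibers, and fibril-associated and beaded-filament collagens tie these structures to each other. The chains of 1 type are products of separate genes, so that a heterotrimer such as type I, V or VI needs coordinated expression from several loci. In carcinomas of the oral mucosa, the basement membrane is breached by invading cells and the stroma is remodeled.

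Levels are log2 processed signals relative to the 75th percentile of the array, so that 0 is that percentile, and differences are OSCC minus normal within a rat on the log2 scale. Every difference of a collagen chain is the mean over 11 pairs, given with its SE for the chains described in full, and adjusted p is from limma with Benjamini-Hochberg correction over all probes. A gene was called when adjusted p was below 0.05 and the mean difference at least 2-fold. The array's 75th percentile was 236.8 to 654.9 signal units in normal tissue and 338.7 to 1414 in OSCC, and 48.4% to 65.5% of the probes on an array were well above background. No slide held both tissues. One scanning day took in the normal arrays together with the OSCC arrays of animals 4 and 9, and the remaining 9 OSCC arrays had a day of their own. Krt5 and Krt14, keratins of basal squamous epithelium, were well above background on all 22 arrays. Probes cannot be compared with each other in level, and only differences between tissues are compared here.

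Some of the upstream sequence of chains with large differences is shown first, because the genomic arrangement sets which of these genes share a start region. In the RefSeq annotation of assembly GRCr8, Col4a1 and Col4a2 on chromosome 16 are transcribed away from each other, and 76 bases lie between them, at chr16:84885521-84885596. This stretch is 78.95% G and C. It is printed together with the 250 bases before the annotated start of Col8a1, a short-chain collagen, at chr11:56246532-56246781. The same length is printed for Col1a2, a chain of type I, at chr4:33518307-33518556. Starts are those of the RefSeq annotation, and whether transcription begins there was not tested. The first line is on the plus strand and both genes of the other lines are also on the plus strand. Capitals mark the letters GGGCGG (the GC box), CCAAT or TATAAA on either strand.
Col4a1-Col4a2 interval: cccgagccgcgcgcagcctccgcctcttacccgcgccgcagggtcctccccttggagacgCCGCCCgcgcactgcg
Col8a1 upstream: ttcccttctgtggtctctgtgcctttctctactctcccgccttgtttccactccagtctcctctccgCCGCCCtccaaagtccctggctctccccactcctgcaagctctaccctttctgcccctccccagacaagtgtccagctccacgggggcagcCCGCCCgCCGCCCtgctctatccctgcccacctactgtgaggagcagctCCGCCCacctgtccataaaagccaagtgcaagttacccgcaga
Col1a2 upstream: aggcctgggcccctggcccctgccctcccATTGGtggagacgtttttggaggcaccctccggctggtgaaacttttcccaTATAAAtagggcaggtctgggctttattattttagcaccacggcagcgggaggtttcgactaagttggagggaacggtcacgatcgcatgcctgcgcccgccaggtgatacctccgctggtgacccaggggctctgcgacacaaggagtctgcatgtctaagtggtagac

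The interval between Col4a1 and Col4a2 held 1 GC box and neither of the other motifs, the Col8a1 window held 4 GC boxes alone, and the Col1a2 window held 1 CCAAT and 1 TATAAA. A window of 250 bases before Col5a2, which is not printed, held none of these motifs. Of the 35 chains, 28 had a start region in the RefSeq table. GGGCGG was found on either strand in 16 of these 28 windows of 250 bases (57.1%), against 32.4% of 27457 windows of all genes. CCAAT was found in 6 (21.4%, against 34.3%) and TATAAA in 4 (14.3%, against 13.1%). In windows of 76 bases next to the start, GGGCGG occurred in 19.3% of all genes. These are letter matches in a window and were not tested as binding sites.

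In the 11 pairs, 12 of the 35 collagen chains were higher in OSCC (34.3%) and 5 were lower (14.3%). Over all probes, 6.86% were called higher and 6.97% lower. Of the remaining 18 chains, 6 had an adjusted p below 0.05 with a mean difference under 2-fold. The median difference of the 35 chains was 0.55, and that of all probes was -0.24. With other scalings of the arrays the median of all probes moved between -0.44 and -0.03, and that of the chains between 0.34 and 0.66, so that the chains lay above the median probe by each scaling tried. After normexp background correction, 7 chains were called higher (Col4a1, Col4a2, Col5a1, Col5a2, Col5a3, Col8a1 and Col16a1) and Col14a1 alone lower. Over all 30367 probes, 1701 were called in either direction after that correction. Because whole pieces of tissue were measured, more cells of a type and more RNA per cell cannot be told apart. For the brightest probe of every chain the ranges of the OSCC and normal arrays overlapped. On the second probe of Col4a1 they did not, with -2.21 the highest normal and -2.17 the lowest OSCC level. Over all probes, ranges without overlap were found for 0.667% with OSCC higher and 0.977% with OSCC lower.

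**Figure D1:**
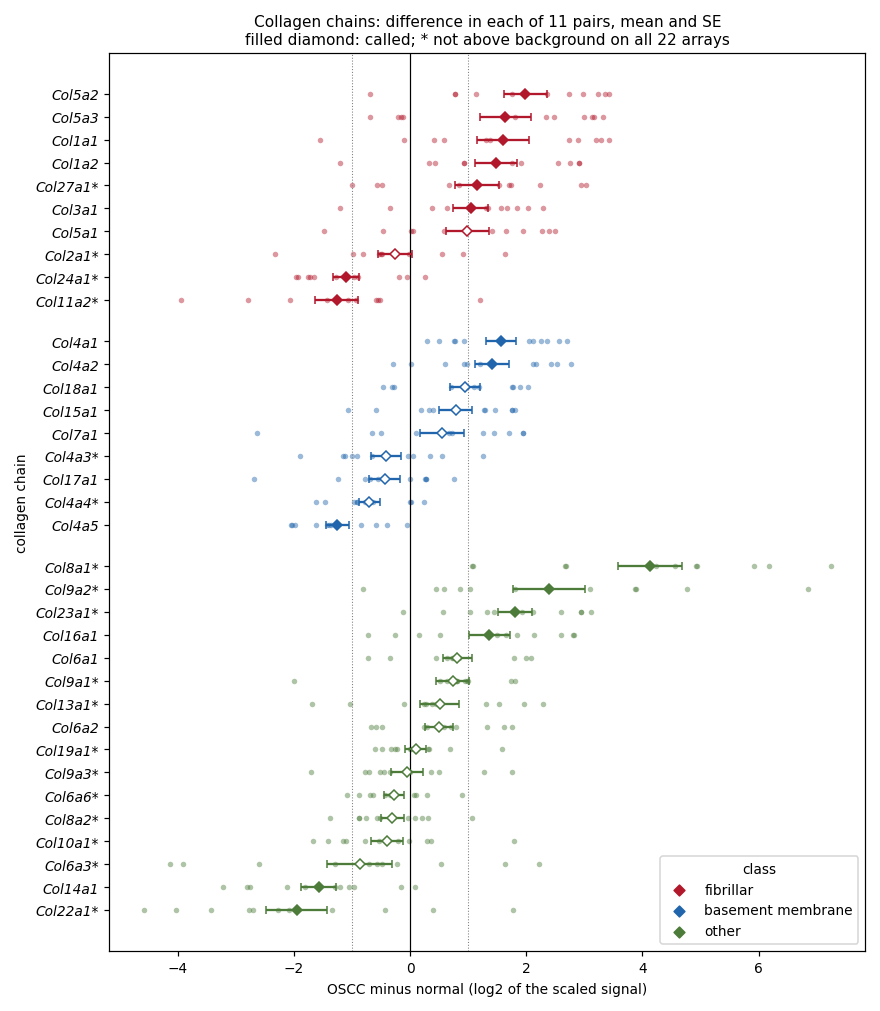
Difference of each of the 35 collagen chains between OSCC and normal tissue (x axis, log2), by class (color); small points are the 11 pairs, diamonds with bars are the mean and SE, and filled diamonds are called chains. In the fibrillar class 6 chains are called higher and 2 lower, and the points of Col8a1 run from 1.06 to 7.24.

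Scan day moved with tissue in 9 of the 11 pairs. With scan day as a further term, limma called none of the 35 chains and 3 of all probes (0.00988%). In that fit only the pairs of animals 4 and 9 set the tissue difference, since day and tissue changed together in the others. Scan day and the small number of pairs cannot be told apart as reasons for the lost calls. At an unadjusted p below 0.05 and 2-fold that fit called 4 chains higher (Col4a1, Col5a2, Col8a1 and Col23a1), where 6.33% of all probes were called higher, and 5 lower (Col4a3, Col4a4, Col4a5, Col8a2 and Col10a1), where 25.2% of all probes were. Of the 5, only Col4a5 was above background on any array. The direction with scan day as a term was that of the fit without it for 33 of 35 chains, and the exceptions were Col2a1 and Col9a3, which were not above background on any array. The pairs of animals 4 and 9 are in both of these fits, so that this likeness is no separate check. In the 9 pairs scanned on different days, 14 chains were called, and the sign of all 14 was shared by animal 4 and by animal 9, the rats with both arrays scanned within 1 day. For Col4a2 the value of animal 4 was only 0.02. Such signs were not counted over all probes. The share of all probes called in those 9 pairs is not given here either. The count of 14 therefore does not set the chains apart from other genes.

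The fibrillar class had the largest share of called chains, with 6 of 10 higher and 2 lower, and a median difference of 1.10. Types I, III and V, the main fibril collagens of soft connective tissue, accounted for 5 of the 6 that were higher.

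Col1a1 encodes the chain that contributes most of the type I trimer. Its level in normal tissue was 2.94 at the lowest, 3.58 at the median and 3.88 at the highest, and in OSCC 2.33, 5.01 and 6.93. The OSCC arrays thus spread on both sides of the normal range. The difference was 1.60 ± 0.45 (SE, n = 11 pairs; limma adjusted p = 0.0158), and it was positive in 9 pairs. Animal 17 had the lowest difference, -1.55, and animal 26 the highest, 3.42. The second probe of Col1a1 gave 2.79. With slide as a random block, or after normexp correction, Col1a1 was no longer called. Its difference after normexp correction was 1.59, so that the adjusted p and not the fold missed the limit there.

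Col1a2, the partner chain of Col1a1, had normal levels of 3.47, 3.79 and 4.01 (lowest, median and highest) and OSCC levels of 2.81, 5.41 and 6.72. Here 10 of 11 pairs were higher in OSCC, by 1.47 ± 0.36 (limma adjusted p = 0.00794). Animal 17 was again the exception, with -1.20. After normexp correction Col1a2 was not called, although its difference of 1.41 was still over 2-fold.

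Col3a1 forms type III homotrimers, which lie in the same fibrils as type I in elastic and young connective tissue. Its normal levels ran from 4.11 through 4.90 to 5.25, and its OSCC levels from 4.04 through 6.21 to 6.94. The difference was 1.04 ± 0.30 (limma adjusted p = 0.0176), close to the 2-fold limit, and the call was lost without animal 11, 13, 16, 25 or 26, when arrays were scaled to their median, with slide as a random block and after normexp correction. The difference of Col3a1 after normexp correction was 1.10.

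Type V collagen nucleates the fibrils of type I and limits their diameter, and 2 of its 3 chains were called. Col5a2 was 0.36, 0.70 and 1.10 in normal tissue (lowest, median and highest) and 0.41, 2.99 and 4.05 in OSCC. Only animal 17 had a lower level in OSCC, and the mean difference was 1.99 ± 0.37 (limma adjusted p = 0.00173), a 3.96-fold change. Col5a3 was -1.33, -0.72 and -0.11 in normal tissue and -1.82, 1.67 and 2.62 in OSCC, a difference of 1.64 ± 0.44 (limma adjusted p = 0.0121). The 11 pairs of Col5a3 fell apart, with 7 between 1.80 and 3.32 and the 4 of animals 17, 21, 22 and 24 between -0.70 and -0.13. In the 9 pairs scanned on different days Col5a3 was not called (limma adjusted p = 0.0561). Col5a1 differed by 0.99 ± 0.37 (limma adjusted p = 0.0446), just under 2-fold. It is the same 4 animals for which Col5a1 was at 0.05 or below.

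Of the fibrillar chains outside types I, III and V, all were dim. Col27a1, a fibrillar chain of cartilage and other developing tissues, was well above background on none of the normal arrays and on 7 OSCC arrays. It was at least 1.23-fold higher in OSCC, with a fitted difference of 1.15 ± 0.38 (limma adjusted p = 0.0306), and lost its call under 8 of 13 alternative settings. The call of Col27a1 was also lost without animal 4, 9, 11, 13, 16, 25 or 26. Col11a2, a type XI chain of cartilage, was at -3.22 in normal tissue and at -4.49 in OSCC (medians), and above background on 7 normal and 3 OSCC arrays. Its difference was -1.27 ± 0.37 (limma adjusted p = 0.0187), its second probe gave -0.35 and was not called, and the call was lost without animal 13, after normexp correction (-0.53), with the mean of both probes and in the pairs scanned on different days. Col24a1 had medians of -3.29 and -4.63, also with 7 normal and 3 OSCC arrays above background, and a difference of -1.10 ± 0.23 (limma adjusted p = 0.00316), which was -0.51 and not called after normexp correction. Col2a1, the main collagen of cartilage, was not above background on any array.

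**Figure D2:**
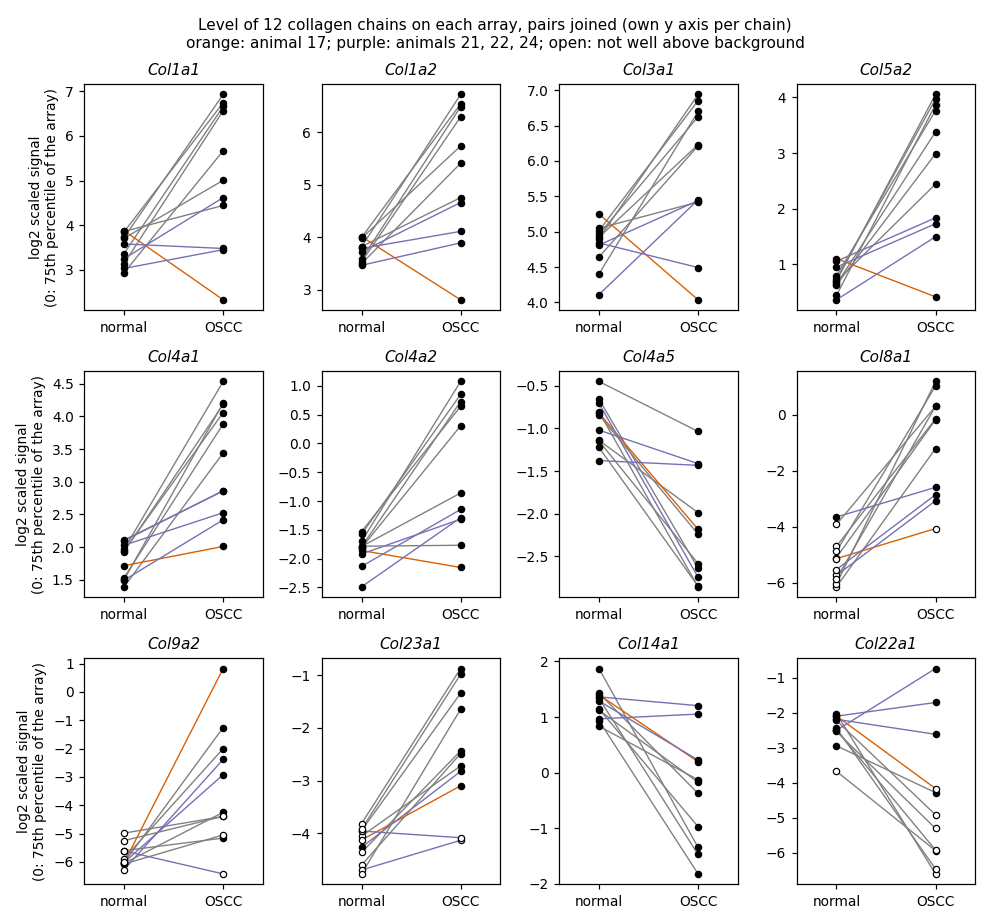
Level of 12 collagen chains on each array (y axis, log2 scaled signal with its own range for each chain), with lines joining the normal and OSCC piece of a rat; orange is animal 17, purple are animals 21, 22 and 24, and open circles are not well above background. Col1a1, Col1a2, Col3a1 and Col5a2 are lower in OSCC than in normal tissue in animal 17, whereas Col9a2 has its highest OSCC level, 0.82, in that animal.

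In the basement membrane class, 2 of 9 chains were higher and 1 was lower, with a median difference of 0.55. All 3 called chains belong to type IV, and they did not move one way.

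Col4a1, of the ubiquitous type IV trimer, was at 1.39, 1.93 and 2.11 in normal tissue (lowest, median and highest) and at 2.01, 3.44 and 4.53 in OSCC. It was higher in OSCC in all 11 pairs, animal 17 included (0.29), and by 1.57 ± 0.26 on average (limma adjusted p = 0.000933). A second probe gave 2.38. Col4a2, its partner in that trimer, was at -2.49, -1.80 and -1.53 in normal tissue and at -2.15, -0.86 and 1.08 in OSCC, a difference of 1.41 ± 0.29 (limma adjusted p = 0.00332). The pair of animal 4, scanned within 1 day, had 0.02 for Col4a2 and 2.05 for Col4a1, and with scan day as a term the difference of Col4a2 fell to 0.47.

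Col4a5 encodes a type IV chain that epithelial basement membranes hold in place of or beside the ubiquitous chains. It was at -1.38, -0.84 and -0.45 in normal tissue and at -2.86, -2.24 and -1.03 in OSCC. It was lower in OSCC in all 11 pairs, from -2.05 to -0.06, and its mean difference was -1.25 ± 0.20 (limma adjusted p = 0.000839). After normexp correction it was -0.68 and not called. Col4a3 and Col4a4, the chains that pair with Col4a5 in the kidney glomerulus and other specialized membranes, were not above background on any array. Col4a1 and Col4a5 thus moved in opposite directions in every rat.

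Among the basement membrane chains that were not called, Col18a1 and Col15a1 are the proteoglycan-type collagens of basement membrane zones, and the former is the source of endostatin. Col18a1 differed by 0.94 ± 0.26 (limma adjusted p = 0.0149) and Col15a1 by 0.78 ± 0.28 (limma adjusted p = 0.0391), each under 2-fold. Col7a1, which forms the anchoring fibrils under squamous epithelium, had a difference of 0.55 ± 0.38 (limma adjusted p = 0.248), and its OSCC levels, from -1.89 to 2.86, enclosed the whole normal range of -0.23 to 1.56. Col17a1, the hemidesmosomal collagen of basal keratinocytes, had a difference of -0.44 ± 0.27 (limma adjusted p = 0.186) with 5 pairs higher and 6 lower. In the pair of animal 24, Col7a1 was at -2.64 and Col17a1 at -2.69, the lowest values of both chains, and the median of the 10 basal epithelial markers was -2.95 there. The part of epithelial content in these differences was not tested.

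Among the other 16 chains, 4 were higher and 2 lower, and the median difference was 0.30. The called chains were 2 higher and 2 lower of the fibril-associated type, 1 short-chain chain and 1 transmembrane chain, and none of the beaded-filament chains.

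Col8a1, a short-chain collagen that forms hexagonal networks in the membranes of vessels and the cornea and is known from remodeling arteries, was higher in OSCC and dim in normal tissue. Its level in normal tissue was -6.15 at the lowest, -5.14 at the median and -3.65 at the highest, and it was well above background on 1 of 11 normal arrays. In OSCC its level was -4.07, -0.18 and 1.19, and 10 of 11 arrays were well above background. All 11 pairs were higher in OSCC, between 1.06 and 7.24, and the mean difference was 4.14 ± 0.55 (limma adjusted p = 0.000369). After normexp background correction the difference was 1.92 and Col8a1 was still called. Col8a2, the other chain of type VIII, was not above background on any array.

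Col9a2, a chain of type IX known from cartilage, was well above background on none of the normal arrays and on 8 OSCC arrays. Its levels were -6.27, -6.02 and -4.99 in normal tissue (lowest, median and highest) and -6.42, -4.25 and 0.82 in OSCC. It was at least 1.41-fold higher in OSCC, with a fitted difference of 2.40 ± 0.62 (limma adjusted p = 0.0103), and 0.53 after normexp correction, where it was not called. Its order over the animals was not that of the fibrillar chains, as animals 17, 16, 21 and 9 had the highest differences, 6.86, 4.77, 3.89 and 3.88. Of 5 gland acinar markers on the array, all were higher in OSCC, and their median difference was 10.9 in animal 17, 9.04 in animal 16, 3.93 in animal 21 and 9.53 in animal 9. It was also 7.29 in animal 4, where Col9a2 differed by 0.59. Their summed level ran from -2.37 to -1.30 in normal tissue and from -0.50 to 10.2 in OSCC, and their part in the Col9a2 signal was not tested. Of 11 cartilage and bone markers, 3 were higher and 1 lower in OSCC, and Acan and Matn1 were not above background on any array. Chad, a cartilage matrix protein, was above background on 7 OSCC arrays and no normal one, and differed by 6.04 in animal 21, 5.75 in animal 17, 4.26 in animal 16 and 2.59 in animal 9. The part of cartilage in the Col9a2 signal was not tested either. The brightest of 3 probes of Col9a1 differed by 0.73 (limma adjusted p = 0.0485), and the other probes gave -0.55 and -1.01. Col9a3 was not above background on any array.

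Col16a1, a fibril-associated chain found at the surface of fibrils and near basement membranes, was at 0.18, 0.46 and 0.81 in normal tissue and at -0.22, 1.95 and 3.27 in OSCC, and it differed by 1.37 ± 0.35 (limma adjusted p = 0.00929). Col23a1, a transmembrane collagen, rose from a median of -4.12 to -2.48, by 1.81 ± 0.30 (limma adjusted p = 0.000908), and its second probe gave 1.51. Of its arrays, 2 of normal tissue and 9 of OSCC were above background, and after normexp correction the difference was 0.68 and not called.

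Both fibril-associated chains that were lower in OSCC are known from mature connective tissue. Col14a1, undulin, which binds the surface of collagen fibrils, was at 0.84, 1.29 and 1.87 in normal tissue and at -1.82, -0.17 and 1.21 in OSCC. The difference was -1.57 ± 0.30 (limma adjusted p = 0.00199), 10 of 11 pairs were lower, and the second probe gave -1.22. Col22a1, a chain of the junction between muscle and tendon, was at -3.67, -2.43 and -2.02 in normal tissue and at -6.60, -4.91 and -0.73 in OSCC, with 10 normal and 4 OSCC arrays above background. Its difference was -1.95 ± 0.52 (limma adjusted p = 0.0122), and it was positive in animal 21 (1.77) and animal 24 (0.39). After normexp correction it was -0.45 and not called. Skeletal muscle markers had medians of 0.70 and 0.63 in animals 21 and 24, 0.19 in animal 22, where Col22a1 differed by -0.43, and -4.44 in animal 11, where Col22a1 had its lowest difference of -4.58. Of 12 skeletal muscle markers, 9 were lower in OSCC, their summed level ran from 10.6 to 11.6 in normal tissue and from 6.57 to 12.0 in OSCC, and the part of muscle content in the Col22a1 difference was not tested.

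The beaded-filament chains, which form the type VI microfibrils around cells, were not called. Col6a1 differed by 0.82 ± 0.25 (limma adjusted p = 0.0233) and Col6a2 by 0.51 ± 0.24 (limma adjusted p = 0.102), and both were above background on all 22 arrays. The brighter probe of Col6a3 had a difference of -0.87 ± 0.55 (limma adjusted p = 0.204) and ran from -4.14 to 2.21 over the pairs, and its other probe was not above background on any array.

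Chains that assemble with each other, or types that share a fibril or zone, were compared with an exact two-sided sign-flip permutation test over the 11 pairs of the gap between their differences. Of 15 contrasts listed, 9 had both probes above background on at least 11 arrays and were run, and 2 had an adjusted p below 0.05. Because both probes lie on the same arrays, the array scaling cancels. Col5a1 and Col5a2 had unequal differences in every pair, with Col5a1 less by 0.70 to 1.42 and a mean gap of -1.0 ± 0.08 (SE; 95% interval -1.17 to -0.83; exact permutation adjusted p = 0.00879). The raw p of 0.000977 is the smallest that 11 pairs allow. Col6a1 had the larger difference than Col6a2 in 9 of 11 pairs, by 0.31 ± 0.09 (interval 0.12 to 0.50; exact permutation adjusted p = 0.0176). That call was lost after normexp correction (exact permutation adjusted p = 0.0527), in the 9 pairs scanned on different days (exact permutation adjusted p = 0.0703) and without the pairs of animals 21, 22 and 24 (exact permutation adjusted p = 0.0938). The intervals of Col6a1 minus Col6a3 (1.68; 0.07 to 3.30) and of Col1a1 minus Col6a1 (0.78; 0.02 to 1.55) left out 0, and both missed the adjusted threshold (exact permutation adjusted p = 0.105 each).

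The gap between Col1a1 and Col1a2 was 0.12 (interval -0.26 to 0.51; exact permutation adjusted p = 0.659). The gap between Col4a1 and Col4a2, which share the 76 bases printed above, was 0.16 (interval -0.29 to 0.62; exact permutation adjusted p = 0.671). These 2 results turn on the probe. With the mean of all probes of a gene in place of the brightest, 7 of the 9 contrasts had an adjusted p below 0.05. Col1a1 then lay above Col1a2 by 0.72 and Col4a1 above Col4a2 by 0.57. Col5a1 and Col5a2 have 1 probe each, so that their gap could not change there, and its dependence on the probe was not tested. For scale, the 2 probes of Col1a1 gave differences of 1.60 and 2.79. Col1a1 minus Col3a1 was 0.55 (interval -0.13 to 1.24), Col1a1 minus Col4a1 was 0.03 (-0.67 to 0.73) and Col15a1 minus Col18a1 was -0.16 (-0.60 to 0.28). A missed threshold here does not show that chains moved alike.

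**Figure D3:**
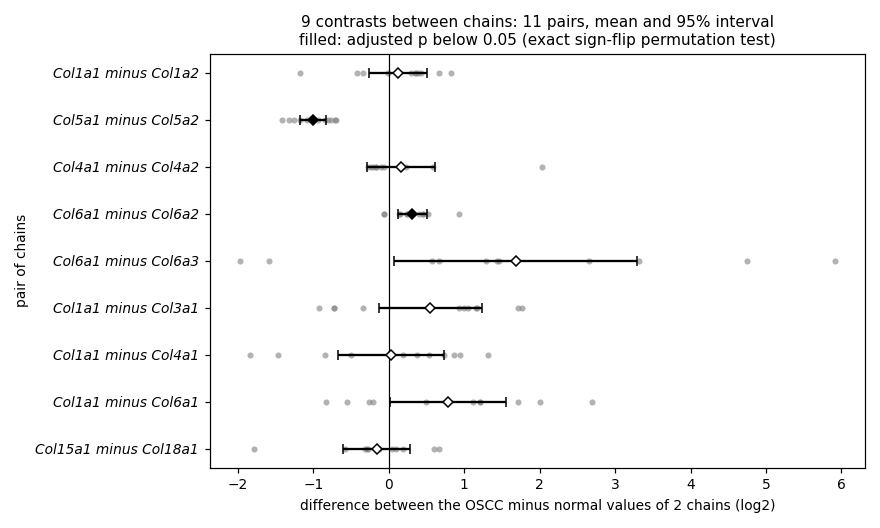
Gap between the OSCC minus normal differences of 2 collagen chains (x axis, log2) for 9 contrasts; gray points are the 11 pairs, diamonds with bars are the mean and 95% interval, and filled diamonds have an adjusted p below 0.05. All 11 points of Col5a1 minus Col5a2 lie left of 0, whereas those of Col1a1 minus Col1a2 lie on both sides.

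The same 9 pairs of chains were correlated over rats, within the larger cluster where the widest gap between rats was over 30% of the range. Differences of 1 rat share both arrays, so that array effects enter both sides of a correlation. For Col5a1 and Col5a2 in 10 rats, Pearson r was 0.97 (permutation p = 5e-05, adjusted p = 0.00045) and Spearman rho 0.95 (permutation p = 0.00016), and r was 0.95 without the 2 rats farthest from the median of Col5a1. For Col1a1 and Col1a2 in 10 rats, r was 0.91 (permutation p = 0.00084, adjusted p = 0.00234), rho 0.93 (permutation p = 0.00034) and r without the 2 farthest rats 0.83. Both held in the 8 of these rats whose arrays were scanned on different days, with r of 0.98 for each pair of chains. In the same family of 9, an adjusted p below 0.05 was also reached by Col6a1 with Col6a2 (r 0.85 in 8 rats, exact permutation adjusted p = 0.00234), Col15a1 with Col18a1 (r 0.83 in 8 rats, exact permutation adjusted p = 0.00234) and Col1a1 with Col3a1 (r 0.80 in 11 rats, permutation adjusted p = 0.00553, falling to 0.64 without the 2 farthest rats). Col4a1 with Col4a2 had r 0.68 in 6 rats (exact permutation adjusted p = 0.16). For Col1a1 with Col6a1, r was 0.57 in 8 rats (exact permutation adjusted p = 0.183) and close to 0 without the 2 farthest. Col1a1 with Col4a1 (r 0.45 in 6 rats) and Col6a1 with Col6a3 (r -0.28 in 8 rats) also missed the threshold.

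The size of the difference varied from rat to rat. The median difference of the fibrillar chains was -0.80 in animal 17, between -0.06 and 0.36 in animals 21, 22 and 24, 0.71 and 1.36 in animals 9 and 4, and between 1.68 and 2.65 in animals 11, 13, 16, 25 and 26. The basement membrane chains ran from -0.30 in animal 17 to 1.75 in animal 11. The other chains had their highest median, 0.92, in animal 24. Without the pairs of animals 21, 22 and 24, which the study names as variable, 23 of the 35 chains were called, 17 higher and 6 lower. In the basement membrane class 5 were then higher in place of 2. Calls over all 30367 probes rose as well without these pairs, from 4201 to 6924. Without animal 17, 18 chains were called, and the count over all probes in that fit is not given here.

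**Figure D4:**
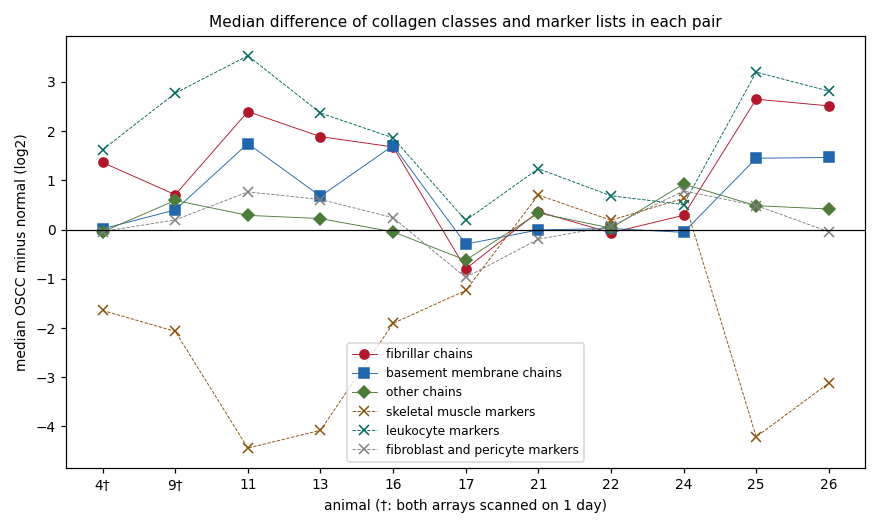
Median OSCC minus normal difference (y axis, log2) of the 3 classes of collagen chains (solid symbols) and of 3 marker lists (crosses) in each of the 11 rats (x axis; daggers mark animals 4 and 9, scanned within 1 day). The fibrillar median is lowest in animal 17, at -0.80, and the skeletal muscle median is above 0 in animals 21, 22 and 24.

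Genes that make, bind and break down collagen were counted from lists of known roles. Of 27 genes for folding and processing, 7 were higher and 1 lower (5 and 1 when arrays were scaled to their median). Lox, the lysyl oxidase that crosslinks collagen, had the largest difference (4.07 ± 0.65, limma adjusted p = 0.000788) and was above background on 4 normal and 10 OSCC arrays. Plod2, which hydroxylates the lysines used in crosslinks, was higher in 11 of 11 pairs (2.34 ± 0.32, limma adjusted p = 0.000421). Loxl4, another oxidase of that family, was above background on 6 OSCC arrays alone. Its fitted difference was 1.52, and no lower limit of its fold could be set. The chaperone Serpinh1 (0.77), the prolyl hydroxylase subunit P4ha1 (0.95) and P4hb (0.53) had adjusted p below 0.05 and stayed under 2-fold.

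Of 13 regulators of fibril assembly, 6 were higher and 2 lower (3 and 2 with that scaling). Thbs2, a matricellular thrombospondin, differed by 3.49 ± 0.70 (limma adjusted p = 0.00258). Fmod, fibromodulin, which binds type I fibrils, differed by 3.22 ± 0.36 (limma adjusted p = 0.00017) and was higher in 11 of 11 pairs. Tnxb, a tenascin that stabilizes fibrils, was lower in 11 of 11 pairs (-2.23 ± 0.31, limma adjusted p = 0.000407).

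Of 11 genes of collagen breakdown and its inhibitors, 7 were higher and none lower (5 higher with that scaling). Mmp13, a collagenase, differed by 4.78 ± 1.06 (limma adjusted p = 0.00447), and Mmp9, a gelatinase, by 3.78 ± 0.95 (limma adjusted p = 0.00871). Each was above background on 1 normal and 8 OSCC arrays. The inhibitor Timp1 differed by 3.16 ± 0.50 (limma adjusted p = 0.0008), in 11 of 11 pairs. Limma called none of 9 collagen receptors, and 5 had an unadjusted p below 0.05. The integrin subunits Itga1 (-0.36), Itga11 (-0.66) and Itgb1 (0.33) had an adjusted p below 0.05 under 2-fold, and the discoidin domain receptors Ddr1 and Ddr2 differed by -0.17 and 0.01.

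**Figure D5:**
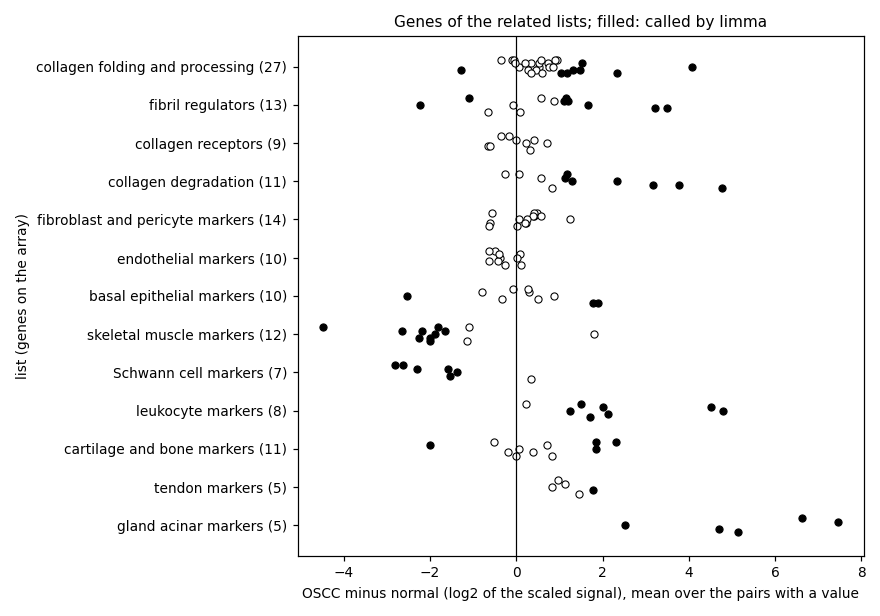
OSCC minus normal difference (x axis, log2, mean over the pairs with a value) of each gene in 13 lists of collagen-related genes and cell type markers (y axis, with the number of genes on the array); filled circles are called by limma. All 14 fibroblast and pericyte markers are open, and 7 of the 11 genes of collagen breakdown are filled to the right of 0.

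Markers of the cells that the pieces could hold were counted beside the chains. Limma called none of 14 fibroblast and pericyte markers, with a median of 0.24, and 4 had an unadjusted p below 0.05. Pdgfra was at 0.49, Pdgfrb at 0.42, Vim at 0.21 and Acta2 at 0.26, and Thy1 at 1.25 with an adjusted p of 0.0535 by limma. Cspg4 (-0.56), Tcf21 (-0.63) and Pi16 (-0.60) went the other way. Fbln2 (0.57), Cspg4 and Tcf21 had a limma adjusted p below 0.05 under 2-fold, and Tcf21 was above background on no array. The summed level of the 14 markers ran from 5.61 to 5.98 in normal tissue and from 5.22 to 6.60 in OSCC. None of 10 endothelial markers was called either (5 at an unadjusted p below 0.05). They had a median of -0.39 and a summed level of 3.84 to 4.36 in normal tissue and 2.60 to 4.38 in OSCC. Pecam1 (-0.48), Kdr (-0.39), Vwf (-0.64) and Cldn5 (-0.64) had a limma adjusted p below 0.05 under 2-fold. Among 10 basal epithelial markers, Itga6 (1.77) was called higher and Krt15 (-2.54) lower, and the summed level of the list was 7.86 to 8.48 in normal tissue and 5.25 to 9.06 in OSCC.

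Other lists moved further. The skeletal muscle genes Myh4, Myoz1 and Atp2a1 were lower by limma, with differences of -4.47, -2.64 and -2.25. Of 7 Schwann cell markers 6 were lower, with Mbp at -2.63 and Prx at -2.31, and a summed level of 3.93 to 4.67 in normal tissue and 1.33 to 4.84 in OSCC. Of 8 leukocyte markers 7 were higher, with S100a9 at 4.78, S100a8 at 4.51 (10 pairs, as animal 25 lacked a value) and Itgam at 2.13, and a summed level of 0.85 to 2.78 in normal tissue and 2.41 to 8.66 in OSCC. Of the 5 gland markers, Prb1 was at least 45.8-fold and Aqp5 at least 7.49-fold higher in OSCC, as neither was above background on any normal array, and Amy1a differed by 6.62. Of 11 cartilage and bone markers, Alpl (1.86) and Ibsp (1.85) were higher, Chad was at least 1.57-fold higher, and Cnmd (-2.00) was lower, with a summed level of -0.85 to -0.07 in normal tissue and -0.31 to 4.75 in OSCC. Of 5 tendon markers Thbs4 alone was called (1.79), and the summed level was 2.37 to 3.32 in normal tissue and 3.46 to 5.54 in OSCC. The part of any of these cell types in the differences of the collagen chains was not tested.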

How the data were processed

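RNA of 11 pairs of OSCC and adjacent normal tongue was measured by the authors on Agilent Rat GE 4x44K v3 arrays. The intensity values were deposited as Feature Extraction 9.5.3.1 processed signals, background-subtracted by the authors and not scaled between arrays. The authors' scaled values (GeneSpring GX 7.3.1) served as an alternative. Each array held 42877 spots besides controls, of which 9196 over all arrays (0.975%) were outliers by the software and were dropped, log2 signals were averaged per probe, and the 75th percentile of the array was subtracted. Differences of dim probes depend on the background correction.

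A linear model with animal and tissue as terms, since both pieces come from the same rat, was fitted to all 30367 probes (limma 3.58.1, R 4.3.3). The number of arrays limits the precision. The fit was tested on simulated data. For genes without signal well above background in 1 tissue, a lower limit of the fold was taken against the lowest detected signal per array or, where higher, the signal of the gene itself. Alternatives covered scaling, background correction, probes, scan day, slide, pairing, the methods' t-test and left-out pairs. Contrasts and correlations used Python 3 with numpy and scipy, with 100000 permutations or all of them.

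The members, classes and lists were chosen with earlier results of these data known. Named were all called chains, both chains of each contrast, 12 chains of the main types whether called or not, and the 3 called genes with the largest difference of each list, except that some of these are not reported here. Others were named after their values were seen. Gene positions and upstream sequences are from RefSeq, assembly GRCr8, and all 35 chains matched a gene by symbol.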

Additional observations from a re-analysis of the deposited data

How the results depend on the processing

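Over all probes 4201 were called, of which 49.6% were higher, and 17 collagen chains. Scaling to the array median left 32.8% of the called probes higher, the 75th percentile over probes detected on all arrays 57.3%, and among the chains the split was 10 higher and 5 lower, and 14 and 5. Normexp background correction gave 1701 probes, 8 chains (7 higher and 1 lower), 3 fibrillar, 3 other chains and 1 contrast between chains. With scan day as a term 3 probes were called and 0 chains, whether fibrillar, basement membrane or other, and 0 of the 58 called genes of the related lists. At an unadjusted p, an alternative chosen after seeing the data, that fit gave 9578 probes, 9 chains and 1 fibrillar chain. Without the pairs of animals 21, 22 and 24, 6924 probes and 6 basement membrane chains were called. The fibrillar count, 8, was 5 with slide as a random block, 5 in the pairs scanned on different days and 5 among probes well above background on at least 11 arrays. Contrasts with an adjusted p below 0.05 numbered 2, and 7 with the mean of all probes and 1 in the pairs scanned on different days.

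With 1 pair left out in turn, 3649 to 4799 probes were called, 14 to 19 chains, 5 to 9 fibrillar (5 without animal 13), 3 to 4 basement membrane and 6 to 7 other chains, and 2 to 3 contrasts. Without the replicate block 4227 probes and 16 chains were called, Col27a1 being the chain lost. None of the 25 chains that the naming rule takes in changed direction under any alternative that could be run, whereas Col2a1 and Col9a3, above background on no array, turned from below to above 0 with scan day as a term (0.00 and 0.02). For dim chains the limit is signal over background, and 6 chains were above background on no array.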
